A study of Homo sapiens with 9 samples.

Results

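The genes described here are the amino acid transporters of the solute carrier (SLC) families SLC1, SLC3, SLC6, SLC7, SLC36, SLC38 and SLC43, taken as every gene whose symbol is one of these family names followed by A and a number. The rule used symbols and no measured value, and it found 59 of the 20379 genes in the deposited table. Amino acids cannot cross membranes unaided, and these carriers move them in and out of cells and lysosomes, either driven by sodium or protons or in exchange for another amino acid. Heteromeric carriers consist of a transporting light chain of the SLC7 family that reaches the plasma membrane only when bound to a heavy chain, SLC3A2 or SLC3A1. When amino acids run short, the kinase GCN2 and the transcription factor ATF4 raise several of these genes through a promoter motif, the C/EBP-ATF response element, and liver cancer cells are known for high levels of glutamine and leucine carriers.

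Poly(A) RNA was sequenced from HCCLM3, an established human hepatocellular carcinoma line, after transfection with siRNA against UXS1, with siRNA against MRPL42 or with a non-targeting control siRNA, with 3 libraries per group. UXS1 makes UDP-xylose, the sugar donor that starts proteoglycan side chains, and MRPL42 is a protein of the mitochondrial ribosome. All groups are transfected cells of a single line, no untransfected cells were used here, and no source used here gives the sequence or dose of an siRNA or the time of harvest. Separate cultures are not stated for the libraries of a group, so every p-value reflects library-to-library spread, which may be technical. The letters a, b and c name the libraries of a group and pair nothing across groups. In bulk RNA, fewer cells of a type and less RNA per cell cannot be told apart.

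Library totals lay between 15265959 and 22400560 estimated counts, and 3 counts in a library equal 0.134 to 0.197 CPM (counts scaled to a common library total). Over all 9 libraries the targeted genes did not pass the test. The log2 fold change of UXS1 with UXS1 siRNA was -0.17 (adjusted p = 0.348 in edgeR). That of MRPL42 with MRPL42 siRNA was -0.39 (adjusted p = 0.185 in edgeR). Of 13 hepatocyte and liver carcinoma markers, 9 were at 1 TPM or more in every library (a TPM value is a count divided by transcript length and scaled to a common total, computed here from the estimated counts and GENCODE 29 lengths) and GPC3 was listed at 0. Of 4 epithelial markers, KRT8 and KRT18, keratins of simple epithelia, were at 2050 TPM or more throughout. CDH1 was at 9.91 to 37.4 TPM, and EPCAM stayed under 1 TPM in every library, at 0.385 to 0.794 TPM. Of 14 fibroblast, endothelial and leukocyte markers, 9 stayed under 1 TPM in every library and CDH5 was listed at 0, while DCN, PECAM1, KDR and LYZ were above 1 TPM in every library. Control library c stood apart: its correlation with the other libraries lay between 0.956 and 0.967, and control libraries a and b reached 0.994 with their nearest library. Relative to the mean of the 9 libraries, the median of amino acid response genes outside the families was -0.43 on the log2 scale in control library c, against 0.42 and 0.38 in control libraries a and b. On the same scale, nuclear-retained and histone RNAs had a median of 0.96 in control library c, against -0.30 and -0.34 in control libraries a and b. Of the 33 members that passed the filter on low counts, control library c was the highest of the 9 libraries for 11 and the lowest for 14. Each comparison with control siRNA is therefore given over all 9 libraries and again without control library c, which leaves 3 libraries against 2. The targeted genes did not pass without control library c either. UXS1 was then at -0.078 with UXS1 siRNA (adjusted p = 0.519 in edgeR). MRPL42 was at -0.24 with MRPL42 siRNA (adjusted p = 0.252 in edgeR).

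Of the 59 members, 29 had a mean of at least 1 TPM in a group and are called expressed, 15 had some counts below that level and 15 had no count in any library. The filter on low counts kept 33 members for testing, namely the 29 expressed and SLC1A1, SLC1A2, SLC6A16 and SLC7A8, whose group means were 0.940 TPM or less. Expressed members made up 3 of 7 in SLC1, 2 of 2 in SLC3, 4 of 19 in SLC6, 7 of 13 in SLC7, 2 of 4 in SLC36, 8 of 11 in SLC38 and 3 of 3 in SLC43. SLC6, which holds the neurotransmitter carriers, was thus the family with most silent members: its 3 monoamine transporters (SLC6A2, SLC6A3 and SLC6A4) stayed at group means of 0.0817 TPM or less, and 6 of its genes, among them the glycine transporter SLC6A5, had no count. The glutamate transporters of nerve and glia were also low, with SLC1A2 at a highest group mean of 0.305 TPM, SLC1A3 at 0.00885 TPM and SLC1A6 with no count. The liver-type glutamine carrier SLC38A3 had no count, and SLC38A4, a system A carrier of hepatocytes, reached a group mean of 0.0754 TPM. Further members with no count were SLC6A7, SLC6A14, SLC6A17 and SLC6A18 in SLC6, SLC7A3, SLC7A4, SLC7A10 and SLC7A13 in SLC7, SLC36A2, SLC36A3 and SLC38A8. SLC6A11, SLC6A12, SLC6A13, SLC6A15, SLC6A19 and SLC7A14 had counts but group means of 0.318 TPM or less.

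Per transcript length, 7 genes stood above 100 TPM in every library, among them the heavy chain of the heteromeric carriers and carriers of leucine, glutamine, small neutral amino acids and creatine. SLC3A2, the CD98 heavy chain, was the most abundant, with 485 ± 19.4 TPM in UXS1 siRNA cells, 509.8 ± 8.41 TPM in MRPL42 siRNA cells and 645 ± 14.9 TPM in control siRNA cells (SD, n = 3 each). Its main light chain SLC7A5, which brings in leucine and other large neutral amino acids in exchange for glutamine, had 366 ± 3.86 TPM in UXS1 siRNA cells, 384 ± 20.7 TPM in MRPL42 siRNA cells and 572 ± 74.6 TPM in control siRNA cells. SLC1A5, the exchanger that brings in glutamine, had 305 ± 6.40 TPM in UXS1 siRNA cells, 319.6 ± 11.5 TPM in MRPL42 siRNA cells and 381 ± 85.0 TPM in control siRNA cells. The sodium-coupled neutral carriers SLC38A1 and SLC38A2 had means over the 9 libraries of 411 and 259 TPM, the creatine transporter SLC6A8 had 265 TPM and SLC38A10, of unsettled substrate, had 147 TPM. Another 14 expressed members had means between 10 and 100 TPM and 8 lay below 10 TPM. Of the 28 neighbouring pairs in this order, 25 had overlapping ranges over the 9 libraries, the exceptions being SLC38A2 above SLC38A10, SLC38A10 above SLC7A11 and SLC6A6 above SLC7A7. The order is therefore one of broad steps, not of single ranks, and it depends on the length taken for each gene, here the median over its principal transcripts.

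**Figure D1:**
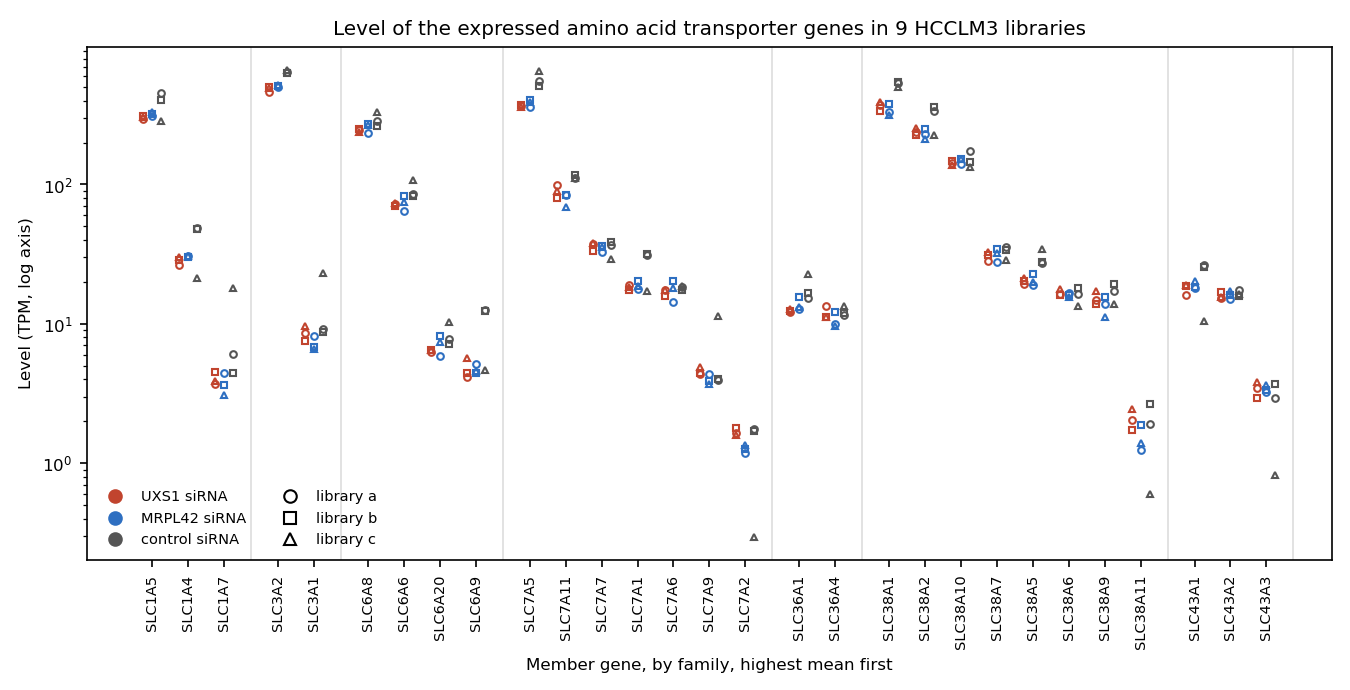
Level of the 29 expressed transporter genes in each of the 9 libraries, in TPM on a log axis, with genes grouped by family and colours marking UXS1 siRNA, MRPL42 siRNA and control siRNA. The 7 genes above 100 TPM belong to 5 families, and control library c (triangles) lies away from control libraries a and b for genes such as SLC1A4, SLC6A9, SLC43A1 and SLC1A7.

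By substrate, carriers of small neutral amino acids and glutamine held the largest summed level, 989 ± 44.4 TPM in UXS1 siRNA cells, 973 ± 56.9 TPM in MRPL42 siRNA cells and 1318 ± 191 TPM in control siRNA cells. Large neutral carriers (SLC7A5, SLC43A1 and SLC43A2 among those expressed) summed to 400.4 ± 5.08, 419 ± 21.6 and 610.2 ± 66.1 TPM in UXS1 siRNA, MRPL42 siRNA and control siRNA cells. Cationic carriers summed to 93.1 ± 5.62, 90.01 ± 6.62 and 104 ± 12.04 TPM, and carriers of anionic amino acids and cystine to 94.7 ± 8.78, 83.6 ± 9.40 and 124 ± 6.17 TPM, in that order of groups. Over all 59 members the summed level was 2566, 2563 and 2637 TPM in the UXS1 siRNA libraries, 2519.7, 2745 and 2599 TPM in the MRPL42 siRNA libraries and 3529, 3408 and 3322 TPM in the control siRNA libraries. Every library of both targeting groups lay below all 3 control libraries, control library c included. For either targeting siRNA the two-sided exact permutation p was 0.1, the smallest that 3 against 3 libraries allow, and the Benjamini-Hochberg value over the 21 such tests of sums and ratios was 0.21. The sums weigh the most abundant genes most. As log2(TPM + 1), 68.1% of all tested genes lay below 0 with UXS1 siRNA and 70.2% with MRPL42 siRNA, against control siRNA. Their medians were -0.086 and -0.112. The part of this shift in the sums was not tested.

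With UXS1 siRNA, some carriers of glutamine, small neutral amino acids, leucine, glycine and arginine were at lower levels than in control libraries a and b. No member was higher past the threshold. Over all 9 libraries no member passed an adjusted p of 0.05 in edgeR's quasi-likelihood test, where 0.0158% of all 12657 tested genes passed. Unadjusted p-values were under 0.05 for 9 of the 33 members, all lower, against 17.8% of all tested genes, and DESeq2 on the same libraries called 4 members lower (SLC38A1, SLC38A5, SLC3A2 and SLC7A5), against 1.11% of all genes. The median log2 fold change of the 33 members was -0.22, with 21 below 0, while that of all tested genes was -0.005. All UXS1 siRNA libraries lay below all control libraries for 7 members (SLC3A2, SLC6A6, SLC7A5, SLC7A11, SLC36A1, SLC38A1 and SLC38A5), against 10.9% of all genes, and above all of them for no member, against 15.3% of all genes. In the fit without control library c, 7 of the 33 members fell at an adjusted p below 0.05 in edgeR, namely SLC1A4, SLC1A5, SLC6A9, SLC7A1, SLC7A5, SLC38A1 and SLC38A2, against 1.07% of all 12747 genes tested. None rose, against 0.502% of all genes, and the median of the members was -0.11, against -0.007 for all genes.

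With MRPL42 siRNA, some carriers of the same kinds were at lower levels than in control libraries a and b. Over all 9 libraries no member passed in edgeR, where 0% of all tested genes passed. The unadjusted p was under 0.05 for 9 members, all lower, against 20.2% of all tested genes, and DESeq2 called SLC38A1, SLC38A5, SLC7A5 and SLC7A11 lower, against 1.22% of all genes. The median over the 33 members was -0.13 on the log2 scale, with 22 below 0, against -0.011 for all genes. All MRPL42 siRNA libraries lay below all control libraries for 5 members (SLC3A2, SLC7A5, SLC7A11, SLC38A1 and SLC38A5), against 10.5% of all genes, and above them for none, against 11% of all genes. In edgeR 6 members fell once control library c was left out (SLC1A4, SLC6A9, SLC7A1, SLC7A5, SLC38A1 and SLC38A2), against 0.792% of all genes, and none rose, against 0.533% of all genes. The median of the members was then -0.19, against -0.011 for all genes. Both comparisons use the same control libraries, so values that stand together in them are not independent of each other.

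**Figure D2:**
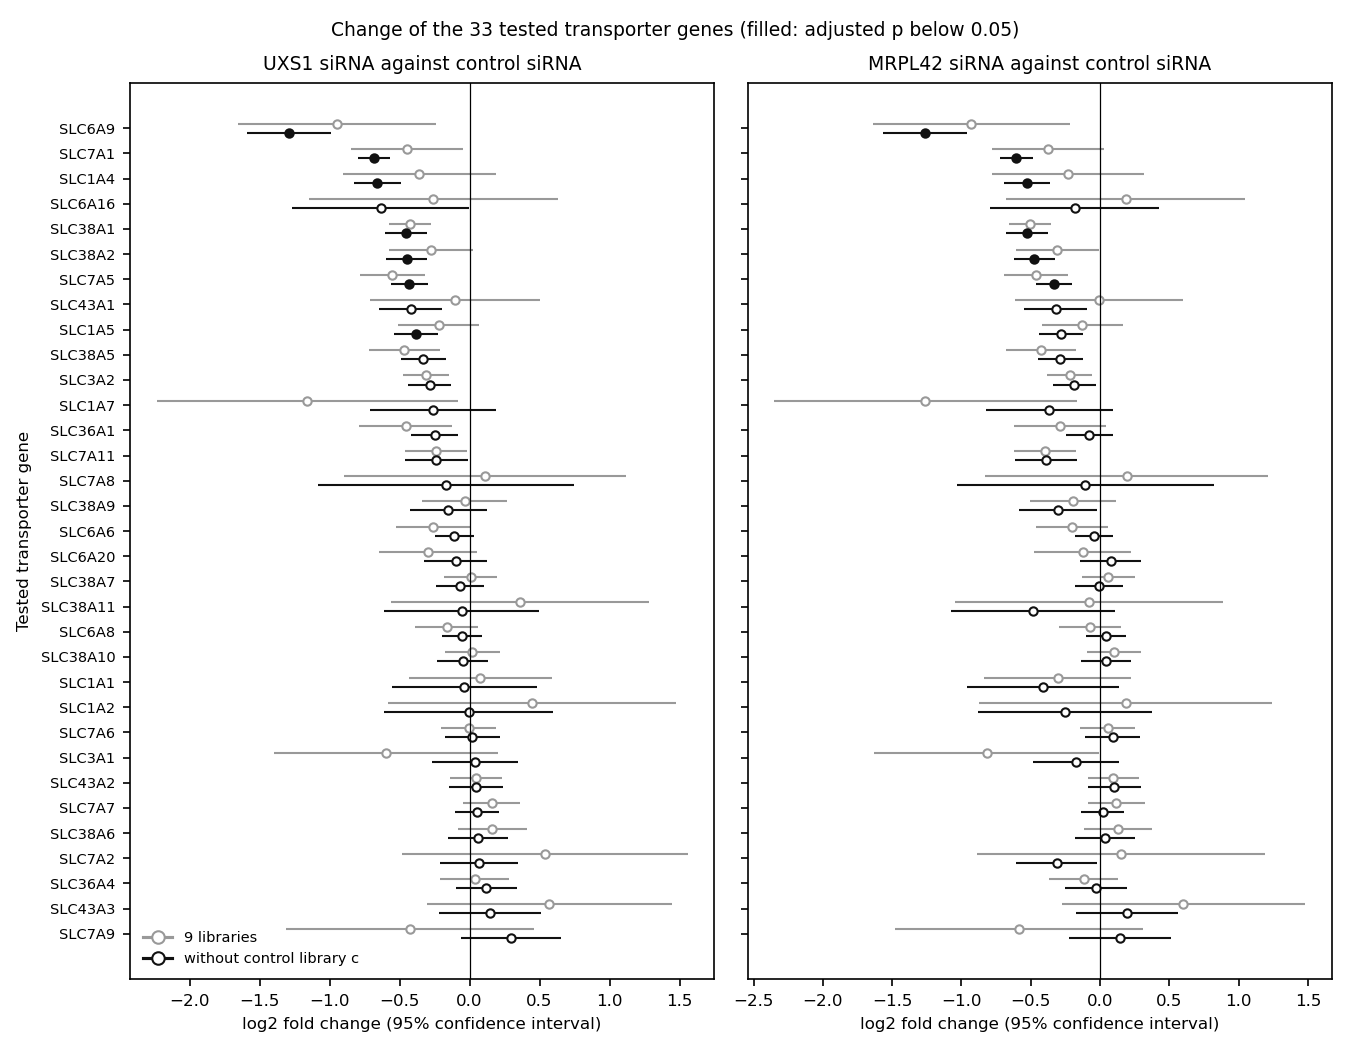
Log2 fold change with its 95% confidence interval for the 33 tested transporter genes, with UXS1 siRNA against control siRNA on the left and MRPL42 siRNA against control siRNA on the right, over 9 libraries (grey) and without control library c (black). Filled points have an adjusted p below 0.05 in edgeR: none over 9 libraries, and 7 and 6 genes, all lower, without control library c.

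The members fall into distinct shapes across the libraries. For SLC38A1, SLC7A5, SLC3A2, SLC7A11 and SLC38A5 all 3 control libraries lay above all 6 targeting libraries. For SLC1A4, SLC1A5, SLC38A2, SLC7A1 and SLC6A9, control libraries a and b lay above all targeting libraries while control library c lay among or below them. None of that second set passed in edgeR over 9 libraries, and the edgeR calls given above came with control library c left out. A limma-voom fit that keeps control library c and gives each library its own weight called all 5 lower with UXS1 siRNA (adjusted p from 0.001 to 0.00899) and SLC1A4, SLC38A2, SLC7A1 and SLC6A9 lower with MRPL42 siRNA (adjusted p from 0.00357 to 0.0139). In control library c the medians of nuclear-retained and histone RNAs and of hepatocyte markers (-0.87) also stood away from the other libraries. The nuclear-retained and histone RNAs moved with the groups as well: without control library c, 6 of the 7 tested lay above 0 in each comparison with control, with medians of 0.303 with UXS1 siRNA and 0.225 with MRPL42 siRNA on the log2 scale, and none passed in edgeR. Their summed level was 251 to 261 TPM with UXS1 siRNA, 242 to 258 TPM with MRPL42 siRNA and 279, 268 and 344 TPM in control libraries a, b and c, with none of them at 0 throughout. The part of these RNAs in the results was not tested.

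**Figure D3:**
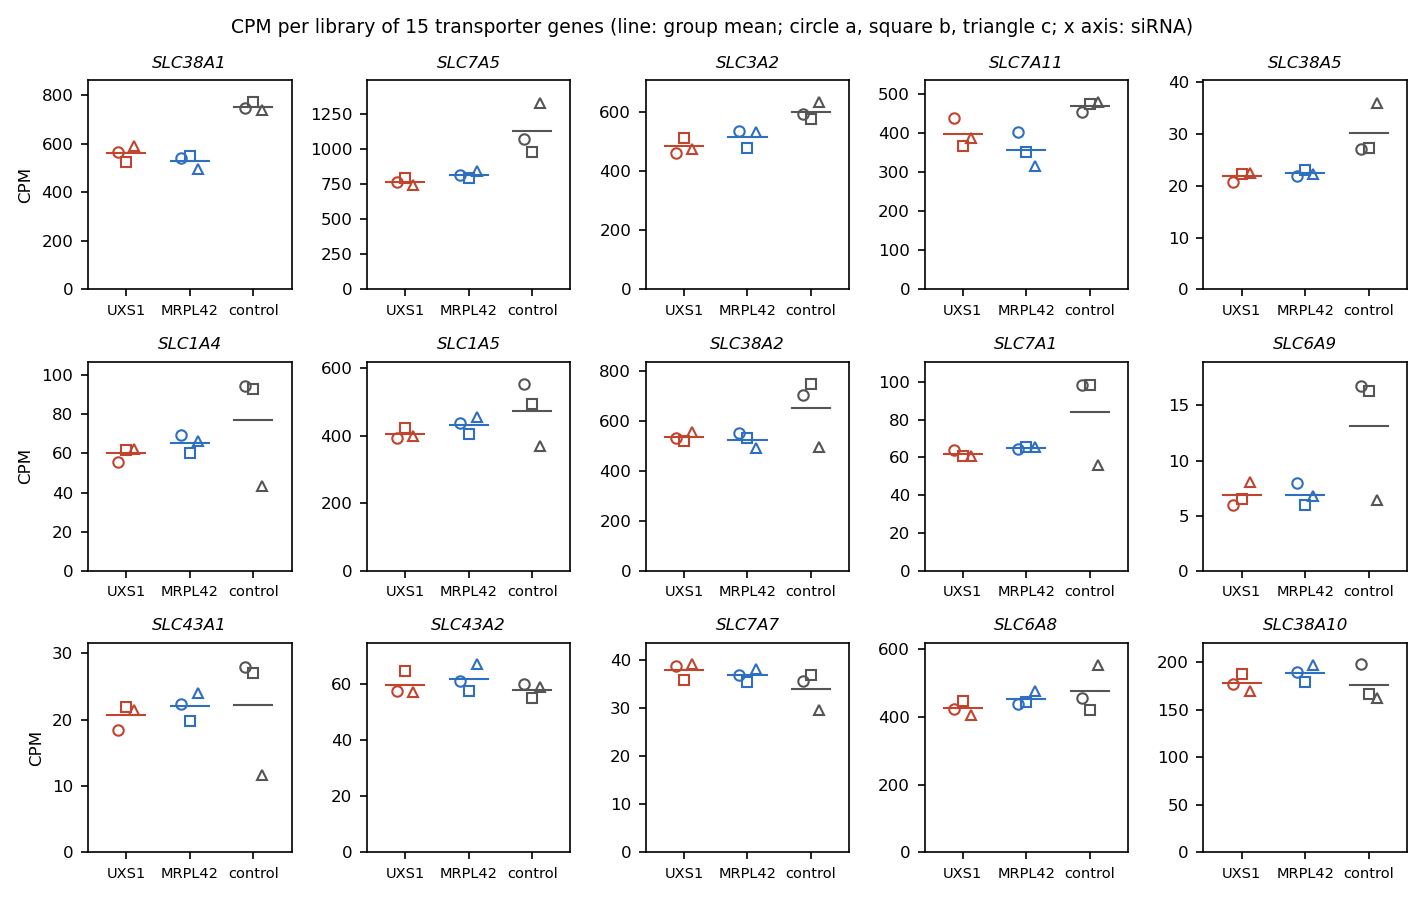
CPM in each library for 15 transporter genes, with UXS1 siRNA, MRPL42 siRNA and control siRNA from left to right, library letters as symbols and group means as lines. In the top row all 3 control libraries lie above the 6 targeting libraries; in the middle row control libraries a and b do and control library c (triangle) does not.

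Promoter sequence is shown for the genes that carry the letters of the C/EBP-ATF response element. Most of the members that fell in edgeR without control library c belong to the known amino acid response. RefSeq windows of 300 bases (GRCh38.p14), 250 before and 50 after an annotated start, were found for 44 of the 59 members and 27 of the 33 tested, and several genes have more than 1 start. The core TGATGNAA, searched on both strands, was found in windows of 5 tested members, SLC1A4, SLC1A5, SLC38A1, SLC3A2 and SLC7A1. Of these, 4 are among the 7 genes that fell with UXS1 siRNA in edgeR without control library c. SLC1A4, SLC38A1 and SLC7A1 also fell with MRPL42 siRNA in that fit. By gene, 5 of the 27 tested members with a window held the core, against 4.46% of 27305 genes. By window, 5 of 46 windows of tested members held it, against 3.62% of 35116 windows of all genes. Whether the core goes with the falls was not tested. The windows are chr2:64989149-64989448 on the plus strand for SLC1A4, chr19:46784765-46785064 on the minus strand for SLC1A5, chr12:46266467-46266766 on the minus strand for SLC38A1, chr11:62881449-62881748 on the plus strand for SLC3A2 and chr13:29595639-29595938 on the minus strand for SLC7A1. Each is written 5′ to 3′ in the direction of its gene, and capitals mark the core or its reverse complement TTNCATCA:
SLC1A4: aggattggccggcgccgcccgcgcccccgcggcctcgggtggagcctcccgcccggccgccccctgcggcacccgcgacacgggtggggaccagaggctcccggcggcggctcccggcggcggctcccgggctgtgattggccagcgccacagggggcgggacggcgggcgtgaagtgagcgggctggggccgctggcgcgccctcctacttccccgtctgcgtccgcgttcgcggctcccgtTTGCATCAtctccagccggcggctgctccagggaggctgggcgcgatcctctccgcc
SLC1A5: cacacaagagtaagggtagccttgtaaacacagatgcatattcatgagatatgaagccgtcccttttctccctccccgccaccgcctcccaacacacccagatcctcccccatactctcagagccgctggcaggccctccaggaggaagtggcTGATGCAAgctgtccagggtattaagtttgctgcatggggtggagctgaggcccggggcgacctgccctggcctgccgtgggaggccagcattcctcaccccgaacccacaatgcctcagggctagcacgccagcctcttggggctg
SLC38A1: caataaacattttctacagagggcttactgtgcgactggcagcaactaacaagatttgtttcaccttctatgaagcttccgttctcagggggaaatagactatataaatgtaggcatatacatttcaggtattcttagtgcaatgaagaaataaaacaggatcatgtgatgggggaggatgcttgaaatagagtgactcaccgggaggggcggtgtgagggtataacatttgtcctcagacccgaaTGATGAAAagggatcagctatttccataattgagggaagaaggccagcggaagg
SLC3A2: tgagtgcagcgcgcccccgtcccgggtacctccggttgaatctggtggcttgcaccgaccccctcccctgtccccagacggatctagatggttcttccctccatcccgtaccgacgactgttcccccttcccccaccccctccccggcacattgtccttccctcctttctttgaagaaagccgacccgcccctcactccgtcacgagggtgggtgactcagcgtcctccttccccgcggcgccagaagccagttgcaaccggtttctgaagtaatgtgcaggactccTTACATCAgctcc
SLC7A1: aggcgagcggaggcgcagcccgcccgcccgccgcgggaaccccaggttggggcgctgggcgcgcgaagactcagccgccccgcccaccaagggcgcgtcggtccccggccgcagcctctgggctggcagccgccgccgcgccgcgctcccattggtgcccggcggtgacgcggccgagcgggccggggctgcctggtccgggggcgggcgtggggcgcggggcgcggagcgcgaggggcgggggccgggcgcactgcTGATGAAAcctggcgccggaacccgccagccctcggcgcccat
Counting the annotated start as 1 and the base before it as -1, the match begins at -7 in SLC1A4, -97 in SLC1A5, -4 in SLC38A1, 38 in SLC3A2 and 8 in SLC7A1, on the opposite strand in SLC1A4 and SLC3A2. SLC7A1 has this window alone, SLC1A4 and SLC38A1 have 2 windows each and SLC1A5 and SLC3A2 3 each, and the gene-level counts do not tell which start was used. SLC6A9, SLC7A5 and SLC38A2, which also fell without control library c, have 1 window each without these letters.

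**Figure D4:**
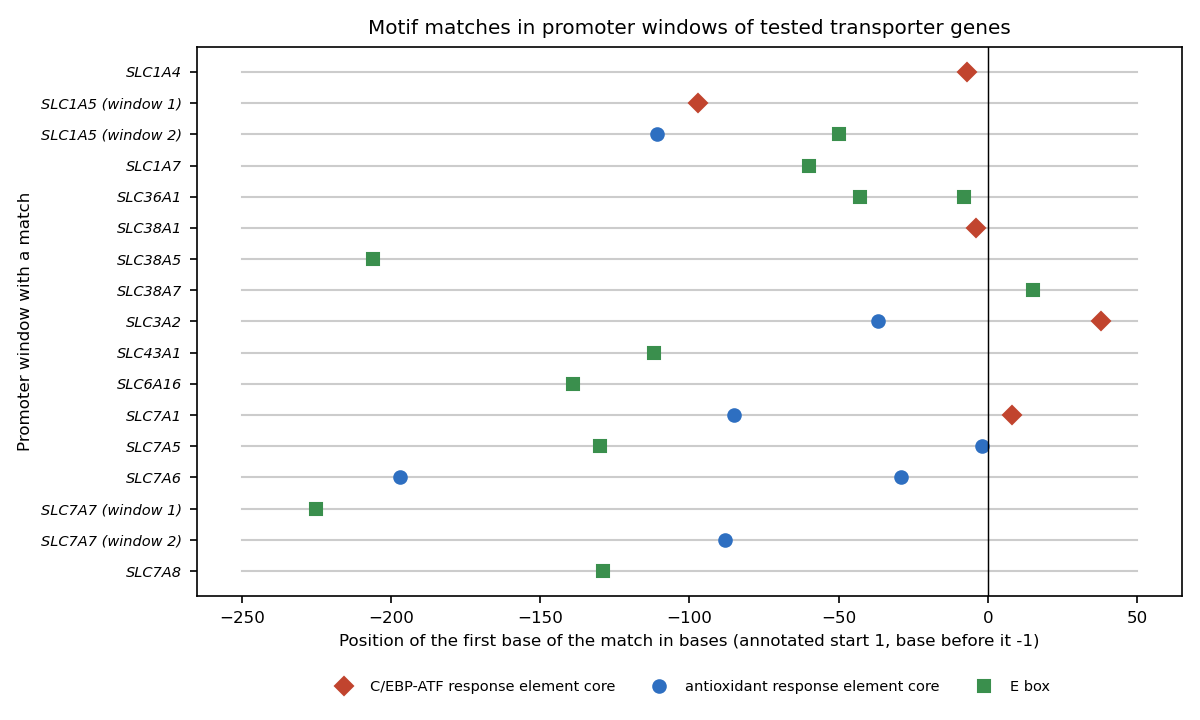
Positions of 3 motif cores in the promoter windows of tested transporter genes that hold a match, in bases with the annotated start as 1 and the base before it as -1. Diamonds mark the C/EBP-ATF response element core, which begins between positions -97 and 38 in 5 genes, circles the antioxidant response element core and squares the E box.

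Of the other motifs searched on both strands, the cyclic AMP response element TGACGTCA was in no member window, against 1.85% of all windows. The antioxidant response element core TGACNNNGC was in 6 of 46 windows of tested members, those of SLC1A5, SLC3A2, SLC7A1, SLC7A5, SLC7A6 and SLC7A7, against 13.3% of all windows. The E box CACGTG was in 10 of 46 windows of tested members, against 7.26% of all windows. A match describes letters in a window and is no evidence of binding.

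Among carriers of small neutral amino acids and glutamine, all 6 tested members (SLC1A4, SLC1A5, SLC38A1, SLC38A2, SLC38A5 and SLC38A7) lay below 0 in both comparisons without control library c. SLC38A1 (chr12:46183063-46270017), a sodium-coupled carrier of glutamine and alanine, had 567, 525 and 589 CPM in the UXS1 siRNA libraries a, b and c, 541, 549.9 and 496 CPM in the MRPL42 siRNA libraries and 748, 771 and 737 CPM in the control siRNA libraries. The 3 control libraries lay close together and above all others. Its log2 fold change over 9 libraries was -0.42 ± 0.067 (SE) with UXS1 siRNA (adjusted p = 0.103 in edgeR) and -0.51 ± 0.067 with MRPL42 siRNA (adjusted p = 0.0939 in edgeR). When control library c was left out it fell by 0.45 with UXS1 siRNA (adjusted p = 0.00885 in edgeR) and by 0.53 with MRPL42 siRNA (adjusted p = 0.00562 in edgeR). SLC38A1 was thus the member with the lowest adjusted p over 9 libraries. It was also the single member called when the 6 libraries of UXS1 siRNA and control siRNA were fitted alone (adjusted p = 0.0277 in edgeR), against 0.176% of all genes.

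SLC38A2 (chr12:46358189-46372867), the system A carrier known to rise when amino acids are withdrawn, had 533, 521 and 557 CPM with UXS1 siRNA, 553, 533 and 490.3 CPM with MRPL42 siRNA and 705, 748 and 496 CPM with control siRNA. Control library c was within the range of the targeting libraries and below control libraries a and b. Over 9 libraries the log2 fold change was -0.28 with UXS1 siRNA (adjusted p = 0.318 in edgeR) and -0.31 with MRPL42 siRNA (adjusted p = 0.241 in edgeR). Without control library c it fell by 0.45 with UXS1 siRNA (adjusted p = 0.00823 in edgeR) and by 0.47 with MRPL42 siRNA (adjusted p = 0.00858 in edgeR). SLC38A5, a glutamine and glycine carrier that can run both ways, had 20.7, 22.2 and 22.5 CPM with UXS1 siRNA, 21.8, 23.0 and 22.3 CPM with MRPL42 siRNA and 27.0, 27.3 and 35.96 CPM with control siRNA. The groups did not overlap, control library c was the highest, and neither edgeR fit passed (adjusted p = 0.171 and 0.136 over 9 libraries with UXS1 siRNA and MRPL42 siRNA, 0.0576 and 0.0868 without control library c). SLC38A7, a lysosomal glutamine carrier, had log2 fold changes between -0.068 and 0.059 in these fits.

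SLC1A4 (chr2:64988477-65023865), an exchanger of alanine, serine and cysteine, had 55.7, 61.9 and 62.2 CPM with UXS1 siRNA, 69.5, 60.2 and 66.5 CPM with MRPL42 siRNA and 94.6, 93.0 and 43.2 CPM with control siRNA. Control library c was the lowest of the 9 libraries, while the other 2 controls were the highest. Over 9 libraries the change was -0.36 ± 0.24 (SE) with UXS1 siRNA (adjusted p = 0.463 in edgeR) and -0.23 ± 0.24 with MRPL42 siRNA (adjusted p = 0.59 in edgeR). Without control library c SLC1A4 fell to 0.633 times the control level with UXS1 siRNA (log2 -0.66 ± 0.075, adjusted p = 0.00241 in edgeR) and to 0.694 times with MRPL42 siRNA (log2 -0.53 ± 0.075, adjusted p = 0.00968 in edgeR). SLC1A5 (chr19:46774883-46788594) had 395, 422 and 399 CPM with UXS1 siRNA, 439, 403 and 454 CPM with MRPL42 siRNA and 554, 492 and 369 CPM with control siRNA. It showed the same shape, with control library c the lowest. Without control library c it fell by 0.38 on the log2 scale with UXS1 siRNA (adjusted p = 0.0271 in edgeR), and its change with MRPL42 siRNA was -0.28 (adjusted p = 0.0855 in edgeR).

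Of the heteromeric carriers, the most abundant chains were lower and the others showed no common direction. SLC3A2 (chr11:62856102-62888875) had 462, 514 and 477 CPM with UXS1 siRNA, 537, 479.6 and 535 CPM with MRPL42 siRNA and 593, 577 and 636 CPM with control siRNA. All controls lay above all targeting libraries, yet neither edgeR fit passed: the log2 fold change with UXS1 siRNA was -0.31 ± 0.073 over 9 libraries (adjusted p = 0.171 in edgeR) and -0.29 ± 0.069 without control library c (adjusted p = 0.0748 in edgeR). With MRPL42 siRNA the changes were -0.22 (adjusted p = 0.161 in edgeR) and -0.19 (adjusted p = 0.172 in edgeR). SLC7A5 (chr16:87830023-87869488) had 763, 794 and 742 CPM with UXS1 siRNA, 811, 794 and 841 CPM with MRPL42 siRNA and 1067, 978 and 1325 CPM with control siRNA. Here control library c was the highest, so leaving it out made the change smaller and its error smaller still. With UXS1 siRNA it was -0.55 ± 0.10 over 9 libraries (adjusted p = 0.132 in edgeR) and -0.43 ± 0.059 without control library c (adjusted p = 0.00671 in edgeR). With MRPL42 siRNA it was -0.46 ± 0.10 over 9 libraries (adjusted p = 0.135 in edgeR) and -0.33 ± 0.059 without control library c (adjusted p = 0.0266 in edgeR). SLC7A5 has near-identical partial copies elsewhere in the genome and an antisense gene over its exons, so its counts carry that uncertainty.

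SLC7A11, the light chain that takes up cystine in exchange for glutamate and feeds glutathione synthesis, had 438, 367 and 389 CPM with UXS1 siRNA, 403, 352 and 316 CPM with MRPL42 siRNA and 455, 475 and 479.8 CPM with control siRNA. The controls agreed closely and lay above all other libraries, while the targeting libraries spread widely. The log2 fold change over 9 libraries was -0.24 with UXS1 siRNA (adjusted p = 0.253 in edgeR) and -0.40 with MRPL42 siRNA (adjusted p = 0.135 in edgeR), and without control library c the adjusted p-values were 0.239 and 0.0915. SLC7A7 and SLC7A6, the light chains that exchange cationic for neutral amino acids, lay between -0.007 and 0.157 on the log2 scale in both comparisons and both fits. SLC7A7 had 38.8, 35.9 and 39.1 CPM with UXS1 siRNA, 36.9, 35.5 and 38.2 CPM with MRPL42 siRNA and 35.6, 36.9 and 29.5 CPM with control siRNA, so the groups overlapped. SLC3A1, the heavy chain of kidney and gut, had 11.8, 10.7 and 13.1 CPM with UXS1 siRNA, 12.1, 8.92 and 9.40 CPM with MRPL42 siRNA and 11.7, 11.03 and 30.9 CPM with control siRNA. Its level in control library c alone set it among the largest differences over 9 libraries (log2 -0.60 with UXS1 siRNA, adjusted p = 0.41 in edgeR), and without that library the value was 0.039. Its exons overlap PREPL on the opposite strand and the protein-coding AC013717.1 on the same strand. No source used here says whether reads were counted by strand. Its partner SLC7A9 had between 2.97 and 3.88 CPM in the targeting libraries and 2.94, 2.99 and 8.91 CPM in control libraries a, b and c.

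The ratio of SLC7A5 to SLC3A2 in TPM was 0.787, 0.7355 and 0.741 with UXS1 siRNA, 0.719, 0.7885 and 0.749 with MRPL42 siRNA and 0.8565, 0.8075 and 0.992 with control siRNA. The light chain was thus lower relative to its heavy chain in every targeting library than in any control library. The exact two-sided permutation p was 0.1 for each targeting siRNA, the smallest possible, and 0.21 after Benjamini-Hochberg adjustment over the 21 tests. All light chains that can pair with SLC3A2 summed to 1.05 ± 0.0623 times SLC3A2 with UXS1 siRNA, 1.01 ± 0.0461 times with MRPL42 siRNA and 1.14 ± 0.0801 times with control siRNA, with exact permutation p-values of 0.3 and 0.1 for the comparisons with control (0.42 and 0.21 after adjustment).

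Among carriers of cationic amino acids, SLC7A1 fell in edgeR without control library c and the other 5 tested passed in neither edgeR fit. SLC7A1 (chr13:29509410-29595688), the main importer of arginine and lysine in most dividing cells, had 63.8, 60.7 and 60.7 CPM with UXS1 siRNA, 64.3, 65.2 and 65.5 CPM with MRPL42 siRNA and 98.0, 98.5 and 56.2 CPM with control siRNA. The targeting libraries lay close together, and control library c was below all of them. Over 9 libraries the change was -0.45 ± 0.18 with UXS1 siRNA (adjusted p = 0.245 in edgeR) and -0.37 ± 0.18 with MRPL42 siRNA (adjusted p = 0.269 in edgeR). Without control library c SLC7A1 fell to 0.623 times with UXS1 siRNA (adjusted p = 0.00108 in edgeR) and to 0.658 times with MRPL42 siRNA (adjusted p = 0.00153 in edgeR), the lowest adjusted p of any member in either comparison. SLC7A2, its liver-type relative, had 5.79, 6.44 and 5.50 CPM with UXS1 siRNA, 4.46, 4.20 and 4.91 CPM with MRPL42 siRNA and 5.73, 5.49 and 1.01 CPM with control siRNA. Its difference over 9 libraries, 0.54 with UXS1 siRNA (adjusted p = 0.559 in edgeR), came down to 0.069 without control library c. SLC38A9, which reports lysosomal arginine to the growth regulator mTORC1, had 17.99, 17.4 and 20.7 CPM with UXS1 siRNA, 18.2, 17.98 and 14.04 CPM with MRPL42 siRNA and 19.4, 21.6 and 16.3 CPM with control siRNA, and the groups overlapped (adjusted p = 0.91 and 0.432 over 9 libraries in edgeR). With MRPL42 siRNA it was called lower, at -0.41 on the log2 scale, with library weights in limma (adjusted p = 0.0349).

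Among carriers of glycine and proline, SLC6A9 showed the largest fold of all called members. SLC6A9 (chr1:43991500-44031467), the glycine transporter that also supplies red cell precursors and glia, had 6.02, 6.53 and 8.03 CPM with UXS1 siRNA, 7.95, 6.01 and 6.81 CPM with MRPL42 siRNA and 16.7, 16.4 and 6.47 CPM with control siRNA. Control library c was within the range of the targeting libraries. Over 9 libraries the change was -0.95 ± 0.32 with UXS1 siRNA (adjusted p = 0.203 in edgeR) and -0.93 ± 0.32 with MRPL42 siRNA (adjusted p = 0.17 in edgeR). Without control library c it fell to 0.409 times with UXS1 siRNA (log2 -1.29 ± 0.13, adjusted p = 0.0017 in edgeR) and to 0.417 times with MRPL42 siRNA (log2 -1.26 ± 0.14, adjusted p = 0.00228 in edgeR). Its exons overlap CCDC24 on the opposite strand. SLC36A1, a proton-coupled exporter of small amino acids from lysosomes, had 21.8, 22.9 and 22.6 CPM with UXS1 siRNA, 24.6, 26.6 and 24.3 CPM with MRPL42 siRNA and 25.5, 27.4 and 39.5 CPM with control siRNA. With UXS1 siRNA all libraries lay below all controls, but neither edgeR fit passed (log2 -0.46, adjusted p = 0.194 in edgeR over 9 libraries, and -0.25, adjusted p = 0.136, without control library c). SLC36A4 had 37.2, 31.7 and 30.2 CPM with UXS1 siRNA, 29.5, 32.0 and 27.5 CPM with MRPL42 siRNA and 29.8, 30.4 and 36.3 CPM with control siRNA, with overlapping groups. SLC6A20, a proline carrier of kidney and gut, had log2 fold changes between -0.296 and 0.077, none past the threshold. Of the 4 members known from lysosomes (SLC36A1, SLC36A4, SLC38A7 and SLC38A9) none passed in either edgeR fit, and their summed level was 68.5 to 74.2 TPM with UXS1 siRNA, 64.4 to 77.98 TPM with MRPL42 siRNA and 78.97 to 81.9 TPM with control siRNA, a sum that was not tested.

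The remaining carriers of large neutral amino acids passed in neither edgeR fit. SLC43A1, a facilitated carrier of leucine and its relatives, had 18.5, 21.95 and 21.4 CPM with UXS1 siRNA, 22.4, 19.7 and 24.0 CPM with MRPL42 siRNA and 27.9, 27.0 and 11.7 CPM with control siRNA. It had the shape of SLC1A4, with control library c far below control libraries a and b, and its change without that library was -0.42 with UXS1 siRNA (adjusted p = 0.0748 in edgeR) and -0.32 with MRPL42 siRNA (adjusted p = 0.128 in edgeR). With UXS1 siRNA it was called lower with library weights in limma (adjusted p = 0.0451), with length offsets and no control library c (adjusted p = 0.0417 in edgeR) and without both control library c and library b of MRPL42 siRNA (adjusted p = 0.0102 in edgeR). SLC43A2, which shares this substrate range, had 57.5, 64.9 and 57.2 CPM with UXS1 siRNA, 61.1, 57.6 and 67.3 CPM with MRPL42 siRNA and 60.0, 55.0 and 59.1 CPM with control siRNA. Its groups overlapped, and the 95% confidence interval of its change over 9 libraries ran from -0.14 to 0.23 with UXS1 siRNA and from -0.088 to 0.28 with MRPL42 siRNA. SLC43A3, a nucleobase carrier despite its family name, had 3.62 to 4.54 CPM in the targeting libraries and 3.25, 4.08 and 0.955 CPM in control libraries a, b and c.

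The creatine transporter SLC6A8 had 423, 446 and 406 CPM with UXS1 siRNA, 439, 444 and 476 CPM with MRPL42 siRNA and 455, 419 and 555 CPM with control siRNA. The groups overlapped, the log2 fold change over 9 libraries was -0.16 (95% confidence interval -0.39 to 0.061) with UXS1 siRNA and -0.073 (-0.30 to 0.15) with MRPL42 siRNA, and without control library c the values were -0.053 and 0.044. Reads of SLC6A8 can be shared with a near-identical pseudogene copy and with PNCK on the opposite strand. The taurine transporter SLC6A6 had 217, 217 and 215 CPM with UXS1 siRNA, 208, 235 and 233 CPM with MRPL42 siRNA and 235, 227 and 315 CPM with control siRNA, and did not pass (log2 -0.26, adjusted p = 0.286 in edgeR with UXS1 siRNA over 9 libraries). SLC1A7, a glutamate transporter known from the retina, had 4.47, 5.63 and 4.66 CPM with UXS1 siRNA, 5.81, 4.20 and 3.85 CPM with MRPL42 siRNA and 6.81, 4.94 and 21.4 CPM with control siRNA. Control library c alone made it the largest difference over 9 libraries, -1.16 with UXS1 siRNA (adjusted p = 0.257 in edgeR) and -1.26 with MRPL42 siRNA (adjusted p = 0.203 in edgeR), and without that library the values were -0.26 and -0.37. SLC38A10, of unsettled substrate, had 177, 188 and 169 CPM with UXS1 siRNA, 189, 179.6 and 197 CPM with MRPL42 siRNA and 198, 166 and 162 CPM with control siRNA. SLC38A6 had 12.7, 12.9 and 13.5 CPM with UXS1 siRNA, 13.8, 11.9 and 12.5 CPM with MRPL42 siRNA and 11.8, 12.99 and 10.2 CPM with control siRNA. Both overlapped between groups, with log2 fold changes over 9 libraries between 0.019 and 0.163 in the comparisons with control.

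Of 9 members known as amino acid response targets, 8 were tested (SLC7A3 had no count), all 8 lay below 0 in both comparisons and both fits, and without control library c 6 fell with UXS1 siRNA and 5 with MRPL42 siRNA. Over all genes in that fit 51.8% and 52.3% lay below 0, and 1.07% and 0.792% passed as lower. Their median log2 fold change was then -0.44 with UXS1 siRNA and -0.43 with MRPL42 siRNA, and over 9 libraries, where none passed, -0.34 in both. Of 37 further genes of the amino acid response and of ATF4, 35 were tested, and without control library c 23 fell with UXS1 siRNA and 21 with MRPL42 siRNA, against the same 1.07% and 0.792% of all genes, none rose, and the medians were -0.54 and -0.46. ASNS, asparagine synthetase, had mean levels of 111 CPM with UXS1 siRNA, 112 CPM with MRPL42 siRNA and 252 CPM over control libraries a and b, and fell by 1.19 and 1.18 on the log2 scale (adjusted p = 0.00108 and 0.00153 in edgeR). GPT2, a mitochondrial alanine aminotransferase, fell by 0.65 with UXS1 siRNA and by 0.57 with MRPL42 siRNA in the same fit (adjusted p = 0.00108 and 0.00153 in edgeR). Over 9 libraries 1 gene of this list passed with UXS1 siRNA and none with MRPL42 siRNA, and the medians were -0.33 and -0.28. The list's summed level was 3214 to 3452 TPM with UXS1 siRNA, 3291 to 3479 TPM with MRPL42 siRNA and 5162.5, 5094 and 2865 TPM in control libraries a, b and c. The low control library for SLC1A4, SLC7A1 and SLC6A9 was thus also low for this list. That low level was among the reasons for leaving control library c out. The counts for this list without that library are therefore not independent of the choice.

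Few genes of the other groups around amino acid transport passed. Of 34 tested genes of amino acid sensing by mTORC1, none passed in either fit, with medians between 0.005 and 0.019 on the log2 scale in the comparisons with control. LAMTOR4 and LAMTOR5, subunits of the lysosomal Ragulator complex, were the nearest to passing, at 0.88 (adjusted p = 0.124 in edgeR) and 0.51 (adjusted p = 0.141 in edgeR) with UXS1 siRNA without control library c. Of 20 tested amino acid and peptide carriers of other families and of 10 tested partner proteins of transporters, none passed without control library c. Of 12 genes of glutamine, glutathione and cystine use, SRXN1 fell with UXS1 siRNA (log2 -0.25, adjusted p = 0.0447 in edgeR), and none passed with MRPL42 siRNA. Of the 8 kinases, phosphatase subunits and related genes of the translation factor EIF2, PPP1R15A, itself a target of ATF4, fell by 0.51 with UXS1 siRNA (adjusted p = 0.00597 in edgeR) and by 0.36 with MRPL42 siRNA (adjusted p = 0.0369 in edgeR).

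Between UXS1 siRNA and MRPL42 siRNA cells no member passed. None of the 33 did so in edgeR over 9 libraries, where 0% of all genes passed, or without control library c, where 0% passed as well, and DESeq2 called none. The unadjusted p was under 0.05 for 0 of 33 members over 9 libraries, against 1.72% of all genes, and for 2 without control library c, against 5.35%. The median difference was -0.037 over 9 libraries, against -0.004 for all genes. All UXS1 siRNA libraries lay above all MRPL42 siRNA libraries for 3 members (SLC1A1, SLC7A2 and SLC38A11), against 5.79% of all genes, and below them for 3 (SLC6A16, SLC7A1 and SLC36A1), against 4.31% of all genes. Without control library c the 95% confidence interval of UXS1 siRNA minus MRPL42 siRNA ran from 0.12 to 0.64 for SLC7A2 and from -0.33 to -0.016 for SLC36A1, each with an adjusted p of 0.868 in edgeR. Of the 7 members that fell with UXS1 siRNA, SLC6A9 had the widest interval of this difference, -0.33 to 0.28, and those of the other 6 lay between -0.29 and 0.21. A miss of the threshold does not show that the levels are alike.

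The counts of called members changed with the treatment of control library c and with a correction for transcript length. The weighted limma-voom fit of all 9 libraries called 11 members lower with UXS1 siRNA, against 3.49% of all genes, and 9 with MRPL42 siRNA, against 5.26%. Beside the genes called in edgeR without control library c, these were SLC3A2, SLC36A1, SLC38A5 and SLC43A1 with UXS1 siRNA and SLC7A11, SLC38A5 and SLC38A9 with MRPL42 siRNA. Adding offsets for transcript length to the edgeR fit without control library c called 10 members lower with UXS1 siRNA (SLC3A2, SLC38A5 and SLC43A1 in addition to the 7), against 1.48% of all genes, and 6 with MRPL42 siRNA, against 1.26%. The tested members had a median transcript length of 3722 bases, against 2993 bases for all tested genes. The relative level rose with length by 0.131 per doubling in control library c and by 0.048 and 0.070 in control libraries a and b. In the targeting libraries the slope was between -0.103 and 0.042, below every control library. The length trend thus ran with the groups compared, and its part in the fits without offsets was not tested. Of the 33 tested members, 15 share exon sequence with another annotated gene, 8 of them with a protein-coding one.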

How the data were processed

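Poly(A) RNA libraries were made from bead-captured, fragmented mRNA, per the labels' protocols. The submitters' processing notes name HISAT2, Bowtie2, fastp, edgeR and hg38, and no source used here gives versions, roles, the counting program or its use of strand. The deposited table holds 1 estimated count per gene and library as the authors made it: 83.6% to 84.9% of the counts above 0 were whole numbers, so a design written for raw counts was applied to estimated counts after rounding. Columns were assigned to groups by name (in the UXS1 columns the letters S and X are swapped), and which repeat a letter stands for is unknown. Every pair of libraries differed by more than counting noise, with a chi-square per gene of at least 3.34, so none was merged. The table also has 9 columns with TPM in their names, which were not used here.

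Tests used edgeR 4.0.16 in R 4.3.3: filterByExpr, TMM scaling, 1 mean per group over all 9 libraries, two-sided quasi-likelihood tests and Benjamini-Hochberg adjustment over all genes tested in a comparison, with a threshold of 0.05. CPM uses TMM-adjusted library totals. TPM, used for levels between genes, was computed from the estimated counts and GENCODE 29 lengths (median over a gene's principal transcripts), and a member counted as expressed at a group mean of 1 TPM or more. Alternatives were DESeq2 1.42.0, limma 3.58.1 with library weights or on log2(TPM + 1) with a pseudocount of 1, other filters and scalings, length offsets and leaving out libraries. Scripts were tested on simulated data. The members, lists and alternatives were chosen with earlier results of these data known. Per-library values are given for members past the threshold in either fit, the highest in TPM of each family, the 3 largest rises and 3 largest falls among members with at least 5 CPM, and 12 chosen by role; SLC6A6, SLC7A9, SLC36A4, SLC38A5, SLC43A2 and SLC43A3 were added after their values were seen. Coordinates come from GENCODE 29 (GRCh38), promoter windows from RefSeq (GRCh38.p14). PCR reads are not independent molecules, and the floors cover counting error only. The confidence intervals also include the library-to-library spread that edgeR estimated.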

Additional observations from a re-analysis of the deposited data

How the results depend on the processing

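No paired analysis was possible because the columns carry letters that no label ties to the repeat numbers. With UXS1 siRNA, the number of members called ranged from 0 to 7 when 1 library at a time was left out (7 without control library c, 3 without MRPL42 siRNA library b). It was 4 in DESeq2, 11 with library weights, 1 with 6 libraries, 10 with length offsets and no control library c, and 10 without both control library c and library b of MRPL42 siRNA, a setting chosen after seeing the data. With MRPL42 siRNA it ranged from 0 to 6 (6 without control library c, 1 without MRPL42 siRNA library b), and was 4 in DESeq2, 9 with library weights, 6 with length offsets and no control library c, and 9 without both of these libraries. All called members were lower. The medians over members stayed negative against control in every alternative run, from -0.251 to -0.104 with UXS1 siRNA and from -0.213 to -0.105 with MRPL42 siRNA. The planned fit of the deposited TPM columns was not run. In its place, and chosen after seeing the data, log2(TPM + 1) was fitted with TPM computed from the estimated counts. On that scale no member was called, and the median of all genes was -0.086 with UXS1 siRNA and -0.112 with MRPL42 siRNA.

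Signs turned for some members, all but SLC1A5 past the threshold in neither edgeR fit of the report, and the cause was not tested. Leaving out 1 library gave, with UXS1 siRNA, ranges of -0.048 to 0.116 for SLC38A10, -0.848 to 0.039 for SLC3A1, -0.694 to 0.297 for SLC7A9, -0.054 to 0.121 for SLC36A4, -0.152 to 0.061 for SLC38A9, -0.030 to 0.077 for SLC43A2 and -0.421 to 0.097 for SLC43A1. With MRPL42 siRNA they were -0.156 to 0.044 for SLC6A8, -0.312 to 0.483 for SLC7A2, -0.852 to 0.144 for SLC7A9, -0.319 to 0.192 for SLC43A1 and -0.283 to 0.005 for SLC1A5. With library weights, with length offsets and no control library c, and without both libraries named above, the values with UXS1 siRNA were -0.014, -0.031 and -0.048 for SLC38A10, 0.025, 0.065 and 0.037 for SLC3A1, and 0.243, 0.245 and 0.297 for SLC7A9. Under the same settings with MRPL42 siRNA they were 0.079, 0.095 and 0.057 for SLC6A8, -0.175, -0.230 and -0.264 for SLC7A2, and 0.083, 0.081 and 0.205 for SLC7A9. With those offsets and MRPL42 siRNA, SLC36A4 was 0.047, SLC38A6 -0.037 and SLC6A6 0.034. On the TPM scale, SLC38A10 was -0.073, SLC36A4 -0.054 and SLC43A2 -0.051 with UXS1 siRNA, and SLC38A10 was -0.010 and SLC43A2 -0.024 with MRPL42 siRNA. Depth limits members near the filter, such as SLC1A2 and SLC7A8, with 232 and 182 counts over all libraries. In the fit of the 6 libraries of UXS1 siRNA and control siRNA their standard errors were 0.528 and 0.452. SLC7A2 and SLC1A7, with 788 and 1130 counts, had standard errors of 0.529 and 0.533 there. The part of depth in these widths was not tested.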
